A study of Mus musculus with 2 samples.

Results

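The windows described here are 50 kb stretches of the mouse genome, read by ATAC-seq for chromatin accessibility in an embryonic stem cell line. In them, counts were higher on the castaneus (CAS) allele than on the 129 allele in both replicates. What is counted is not given, and whether a difference in counts is one in accessibility was not tested. A window was chosen when its CAS count exceeded its 129 count by 2 or more in replicate 1 and again by 2 or more in replicate 2. The rule was met by 661 of 43941 windows (1.5%), and the mirror rule, 129 above CAS by 2 or more in both replicates, by 552 windows (1.26%). The difference between the alleles therefore chose the windows, is given below as a description and was not tested on them. Coordinates are 1-based on mm10, and gene positions are those of RefSeq for GRCm38.p6, the assembly that mm10 corresponds to.

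The cells were F121-6, a female hybrid line carrying 1 chromosome set of 129 origin and 1 of CAS origin, grown with serum and LIF on mouse embryonic fibroblasts that mitomycin C had inactivated. All measurements came from this 1 line in 1 condition, so that strain of origin and parent of origin cannot be told apart, and the labels do not say which strain was the mother. The CAS and 129 columns of a replicate are the alleles of 1 library. Replicates 1 and 2 held 46128 and 59995 CAS counts, against 44026 and 59812 counts on 129. The labels do not say whether the replicates were separate cultures, so p-values measure the spread between these 2 libraries, which may be technical. The feeders' strain is not given in the sources used here. At 10 loci of stem cell genes, all with counts, the columns summed to 82 and 99 on CAS and to 82 and 106 on 129. At 12 loci of fibroblast genes they summed to 37 and 33 on CAS and to 31 and 36 on 129. Counts per window, summed over the columns, had a median of 5.5 over these 12 loci and of 20.6 over the 10 stem cell loci. The median over all windows was 3. The fibroblast loci ran from 0 at Postn, a matrix protein gene and the only 1 without counts, to 16.3 at Fn1. The part of feeder nuclei in the chosen windows was not tested.

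ATAC-seq uses a transposase that inserts sequencing adapters preferentially where DNA is not wrapped in nucleosomes, so that promoters and enhancers in use collect insertions at a high density. In a hybrid between distant strains, sequence variants let a fragment be assigned to its parental chromosome, and both alleles are then read in the same nuclei with the same regulatory proteins present. Embryonic stem cells are known for broadly accessible chromatin, with much of it at the starts of housekeeping and pluripotency genes.

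The promoters below are 1 gene start from each of the 5 highest-ranked chosen windows that hold a coding gene start with an entry in the sequence table. They show how unlike each other the promoters in these windows are. Each runs from 250 bases before the start to 50 bases from the start on, 5′ to 3′, from RefSeq on GRCm38.p6. That is the reference strain's sequence and neither allele of the line. Capitals mark matches on either strand to GGGCGG (the core of the GC box), CCAAT (the CCAAT box) and TATAAA (the TATA box).
Cwc22 (chr2:77946307-77946606, minus strand): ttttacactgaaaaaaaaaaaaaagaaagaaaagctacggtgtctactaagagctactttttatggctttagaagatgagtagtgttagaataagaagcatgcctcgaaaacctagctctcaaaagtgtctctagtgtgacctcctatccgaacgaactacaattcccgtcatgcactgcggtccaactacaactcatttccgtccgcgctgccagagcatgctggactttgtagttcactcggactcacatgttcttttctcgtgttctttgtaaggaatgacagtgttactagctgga
Pdpn (chr4:143299515-143299814, minus strand): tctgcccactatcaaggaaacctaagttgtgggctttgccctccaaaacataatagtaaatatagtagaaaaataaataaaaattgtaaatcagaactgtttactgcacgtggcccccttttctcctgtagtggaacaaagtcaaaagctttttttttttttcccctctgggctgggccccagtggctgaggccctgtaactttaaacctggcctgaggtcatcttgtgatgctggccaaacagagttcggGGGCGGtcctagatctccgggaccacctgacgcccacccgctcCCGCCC
Duxf3 (chr10:58233040-58233339, minus strand): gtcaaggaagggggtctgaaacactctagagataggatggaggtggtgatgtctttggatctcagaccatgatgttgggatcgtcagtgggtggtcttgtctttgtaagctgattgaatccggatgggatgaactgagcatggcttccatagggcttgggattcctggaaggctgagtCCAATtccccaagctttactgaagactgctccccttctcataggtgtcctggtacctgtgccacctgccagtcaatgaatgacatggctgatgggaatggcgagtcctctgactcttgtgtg
Hnrnpc (chr14:52103972-52104271, minus strand): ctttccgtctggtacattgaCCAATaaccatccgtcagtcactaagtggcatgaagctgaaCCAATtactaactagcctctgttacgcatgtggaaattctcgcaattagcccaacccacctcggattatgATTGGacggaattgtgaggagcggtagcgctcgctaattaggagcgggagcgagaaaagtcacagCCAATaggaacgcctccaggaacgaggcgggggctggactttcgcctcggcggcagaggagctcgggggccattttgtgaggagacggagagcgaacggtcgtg
Tsn (chr1:118310679-118310978, minus strand): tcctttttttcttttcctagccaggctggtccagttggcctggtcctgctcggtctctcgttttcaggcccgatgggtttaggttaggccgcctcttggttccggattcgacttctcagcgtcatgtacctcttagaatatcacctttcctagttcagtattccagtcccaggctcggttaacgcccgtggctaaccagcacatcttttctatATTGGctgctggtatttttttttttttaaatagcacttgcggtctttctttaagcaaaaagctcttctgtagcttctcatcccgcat

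The ratio of CpG dinucleotides found to those that the base composition would give was 1.01 for Hnrnpc, which encodes an RNA-binding protein of pre-mRNA, with 4 CCAAT matches. It was 0.833 for Cwc22, which encodes a splicing factor, with 0 motif matches, and 0.741 for Tsn, which encodes the nucleic acid-binding protein translin, with 1 CCAAT match. It was 0.399 for Pdpn, which encodes the membrane glycoprotein podoplanin, with 2 GGGCGG matches, and 0.160 for Duxf3, a member of the repeated double homeobox family, with 1 CCAAT match. A motif match is a description of these letters only, and a window holds far more sequence than its promoter.

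Over the chosen windows, the CAS count had a median of 4 in replicate 1 (range 2 to 12) and 4 in replicate 2 (2 to 17), against a 129 median of 1 (0 to 10) and 2 (0 to 13). The difference was 2 at the median in both replicates and at most 7 in replicate 1 and 12 in replicate 2. CAS held 72.8% of the windows' counts in replicate 1 and 70.7% in replicate 2, as the choice fixes. The summed count over the 4 columns was 11 at the median, with quartiles of 7 and 16, against 3, with quartiles of 1 and 7, over all windows. A window needs at least 4 CAS counts over both replicates to be chosen, so the chosen windows could only come from the stronger part of the table.

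Most chosen windows lay at the edge of the rule. The smaller of a window's 2 differences was exactly 2 in 542 windows (82.0%), 3 in 85, 4 in 25, 5 in 6 and 6 in 3. In 259 windows the difference was 2 in both replicates. These windows, just inside the rule, averaged 3.18 and 3.58 CAS counts against 1.18 and 1.58 counts on 129. Just outside it, 1182 windows with a difference of 1 in a replicate and 2 in the other averaged 2.43 and 3.06 CAS counts against 1.05 and 1.44 counts on 129. Of 2107 windows that met the rule in replicate 1, 661 (31.4%) also met it in replicate 2, 501 (23.8%) had equal alleles there and 388 (18.4%) were higher on 129 there. In all, 226 windows differed by 2 or more in opposite directions in the 2 replicates. Of these, 150 were higher on CAS in replicate 1 and so are among the 388, and 76 were higher on CAS in replicate 2.

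The 25 windows with the largest smaller difference held, or lay nearest to, genes of several kinds. They are given by the known role of these genes, and no role was tested as a theme. The window with the highest rank lay 12297 bp from Vmn2r68, a pheromone receptor gene of the vomeronasal organ, at chr7:85250001-85300000. It held 6 and 14 CAS counts, against 0 and 2 counts on 129. The windows on its 2 sides were almost without counts, so the difference stood alone in its surroundings: the left one was at 0 in every column and the right one held 0 and 0 on CAS, against 0 and 3 on 129. Of the 25, 3 windows lay in the immunoglobulin heavy chain locus, whose variable segments are joined to make antibody genes in B cells. The window with Ighv3-1, Ighv11-1 and Ighv14-2 (chr12:113950001-114000000) held 7 and 7 CAS counts against 0 and 1 on 129. The window with Ighv6-4, Ighv6-5 and Ighv6-6 (chr12:114400001-114450000) held 11 and 17 against 4 and 13, and the window with Ighv1-8 (chr12:114550001-114600000) held 7 and 14 against 3 and 8. In each of these windows the CAS values of both replicates lay above the 129 value of the same replicate, as the rule asks. Between replicates the ranges overlapped in the windows with Ighv6-4 and Ighv1-8. Vomeronasal receptors and antibody segments are families of similar copies, so these counts are uncertain. Whether reads were exchanged between copies was not tested.

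Several of the 25 held genes of RNA processing, chromatin and gene control. The Cwc22 window (chr2:77900001-77950000) held 6 and 13 CAS counts against 1 and 1 on 129, and the windows beside it had at most 5 counts in any column. Whether both alleles carry the same number of copies of Cwc22 was not tested. The Hnrnpc window, which also holds Rpgrip1 (chr14:52100001-52150000), had 7 and 10 against 3 and 2. The Tsn window, with Nifk, which encodes a nucleolar protein (chr1:118300001-118350000), had 8 and 11 against 3 and 7. The Spin1 window, for the histone reader spindlin 1 (chr13:51050001-51100000), had 7 and 4 against 0 and 0. It was the only 1 of the 25 with no 129 count in either replicate, and the window to its left, also chosen, had 7 and 4 against 1 and 2. The Hlx window, for a homeobox factor (chr1:184700001-184750000), had 6 and 7 against 2 and 2. The Duxf3 window (chr10:58200001-58250000), which lies in a repeated gene cluster and has a neighbour that is not in the table, had 6 and 8 against 1 and 1. It was 1 of only 12 chosen windows on chromosome 10.

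Others held signalling genes. The Map4k3 window, for a kinase of the MAP kinase cascade (chr17:80650001-80700000), held 6 and 8 CAS counts against 0 and 1 on 129. Its neighbours were level: 6 and 6 against 6 and 6 to the left, and 7 and 6 against 7 and 6 to the right. The Ntrk3 window, for a neurotrophin receptor (chr7:78550001-78600000), held 9 and 7 against 3 and 3. The Rap1gap2 window, for a regulator of the Rap1 GTPase (chr11:74550001-74600000), held 8 and 9 against 4 and 4. The Ibtk window, for an inhibitor of Bruton's tyrosine kinase (chr9:85750001-85800000), held 8 and 7 against 1 and 2. In these 4 windows both CAS values lay above both 129 values. The rule and the ranking favour such a separation, and its share over all chosen windows was not counted.

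The windows left held, or lay nearest to, genes with other roles. The Pdpn window (chr4:143250001-143300000) held 8 and 11 CAS counts against 3 and 3 on 129. The Plod2 window, for an enzyme that hydroxylates lysines of collagen (chr9:92500001-92550000), held 5 and 7 against 1 and 1. A window without a gene, 511614 bp from the sodium-calcium exchanger gene Slc8a1 (chr17:82250001-82300000), held 6 and 9 against 2 and 4. In all 3 the values of the alleles did not overlap across replicates, which the rule and the ranking again favour. The windows of Klhl25 (7 and 8 against 1 and 3) and Kctd3 (7 and 8 against 3 and 3), both of the BTB domain family, and those of Tbc1d31 with Fam83a (9 and 7 against 2 and 3), Gas2 with Svip (6 and 8 against 2 and 3) and Sh2d4b with Tspan14 (5 and 7 against 0 and 3) had differences of 4 to 7 counts. A window without a coding gene lay 33059 bp from Arl8b, which encodes a GTPase of lysosomes, and held 7 and 8 against 2 and 4.

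**Figure D1:**
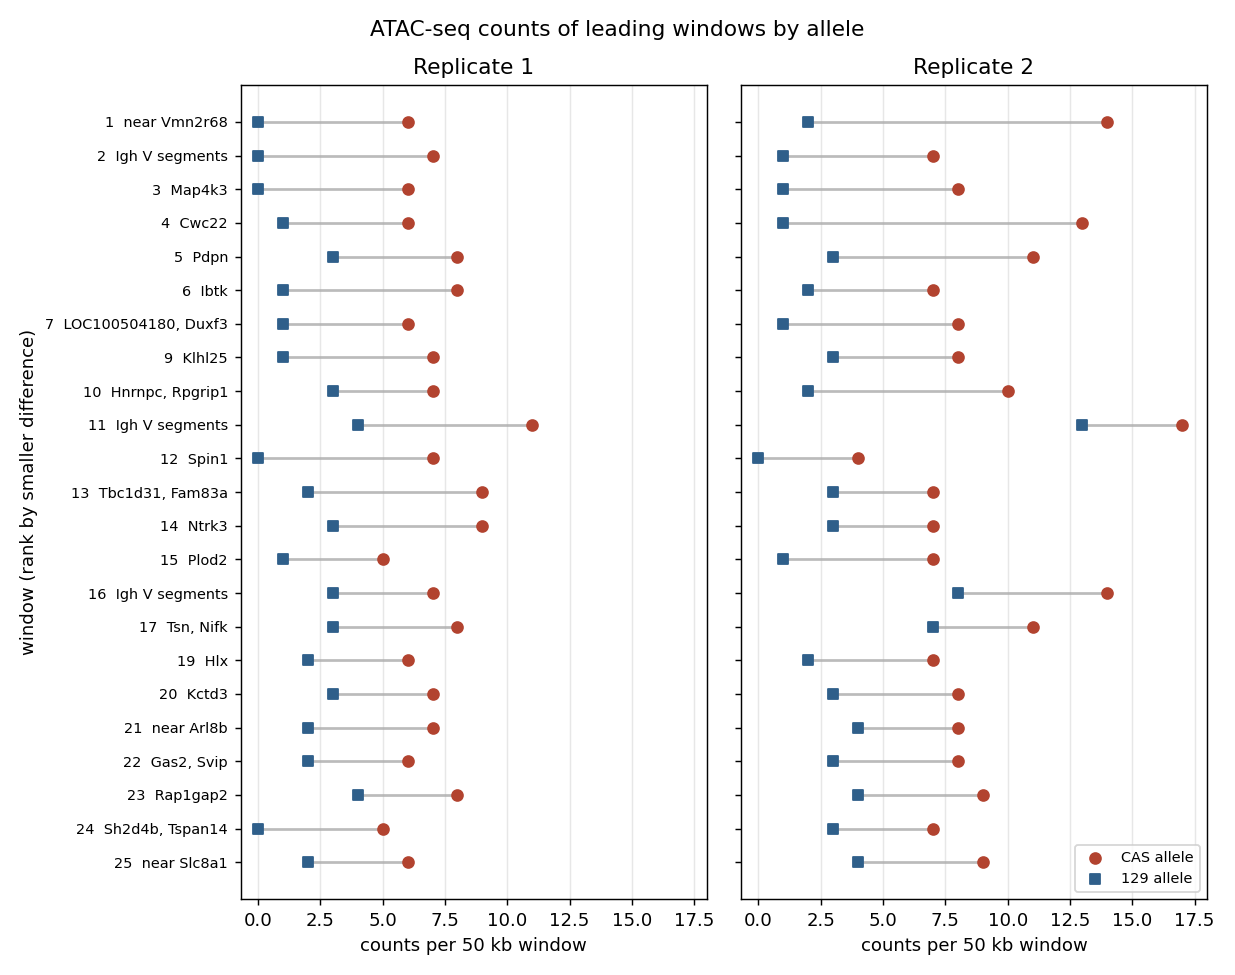
Counts per 50 kb window (x axis) of 23 of the 25 highest-ranked windows (y axis, by the smaller of the 2 differences), with CAS as circles and 129 as squares, replicate 1 on the left and replicate 2 on the right. CAS lies right of 129 in every row because the rule chose it so, and the gap runs up to 7 counts in replicate 1 and 12 in replicate 2.

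The plot of the leading windows shows a median difference of 5 counts in each panel, with the larger difference in replicate 1 in 10 of the 23 windows drawn and in replicate 2 in 13. Over all chosen windows the larger difference was more often in replicate 2, whose columns hold more counts (239 windows, against 111 with the larger difference in replicate 1 and 311 with equal ones). The flanks of the 25 were mixed. Of their 50 flanking positions, 10 were themselves chosen windows, 13 were higher on CAS in both replicates by less than the rule asks, 2 were higher on 129 in both, 1 met the mirror rule, 22 had no common direction and 2 are not in the table.

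No 129 count was recorded in either replicate in 128 of the chosen windows (19.4%). These were weak windows, with a summed count of 4 at the median and 11 at most. Only 14 had a smaller difference of 3 or more. After Spin1, the largest were a window 315980 bp from Usp24, which encodes a deubiquitinating enzyme (chr4:105950001-106000000), and a window 5673 bp from Rpp21, a subunit of ribonuclease P (chr17:36200001-36250000), each with 4 and 4 CAS counts against 0 and 0 on 129. Gm1966 had 3 and 5 against 0 and 0, and a window 73972 bp from Bnc2, a zinc finger gene, had 4 and 3. Windows inside Nck2, an adaptor of tyrosine kinase signalling, Dab1, a reelin signal adaptor, Tenm2, a synaptic adhesion gene, and Plekhg3 with Sptb each had 3 and 3 against 0 and 0. Hs6st3, which sulfates heparan chains, had 4 and 3 against 0 and 0. The remaining 4 lay outside coding genes, nearest to Anxa10 (3 and 4 CAS counts), Fam78b, Dynlrb2 and Adam7 (3 and 3 each). A 129 count of 0 is a low reading here and does not show closed chromatin, since the depth behind a count is unknown.

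Chosen windows were spread unevenly over the 19 autosomes. Chromosome 8 held 72 (3.02% of its windows), chromosome 18 held 51 (2.97%), chromosome 7 held 60 (2.35%), chromosome 14 held 48 (2.30%) and chromosome 1 held 79 (2.22%). At the low end were chromosome 2 with 26 (0.866%), chromosome 10 with 12 (0.487%) and chromosome 19 with 4 (0.393%). Chromosomes 1, 7, 8 and 18 together held 262 (39.6%) of the chosen windows on 23.2% of all windows. The mirror windows had another order: chromosome 10 held 86 of them (3.49%) and chromosome 8 held 5 (0.210%). Chosen windows outnumbered mirror windows on 10 chromosomes and were outnumbered on 9.

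The windows that met neither rule leaned the same way on the same chromosomes. Their CAS share was 54.4% and 57.5% in replicates 1 and 2 on chromosome 8, and 54.4% and 54.3% on chromosome 18. It was 41.4% and 45.5% on chromosome 10, and 51.1% and 50.0% over all of them. Across the 19 chromosomes, the percentage of chosen windows and the mean CAS share of unselected windows had a Pearson r of 0.906 and a Spearman rho of 0.909, given as a description because both measures come from the same 2 libraries. When the 129 counts of each chromosome were scaled to its CAS total, 341 windows met the rule, of which 338 had been chosen before. Under that scaling chromosome 8 kept 22 windows (0.924%) and chromosome 10 had 14 (0.568%), and the chromosomes ranged from 0.492% (chromosome 19) to 1.18% (chromosome 7). A factor above 1 lifts any nonzero 129 count, which takes a window with a difference of exactly 2 out of the rule, so this count falls by construction on chromosomes that lean to CAS.

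**Figure D2:**
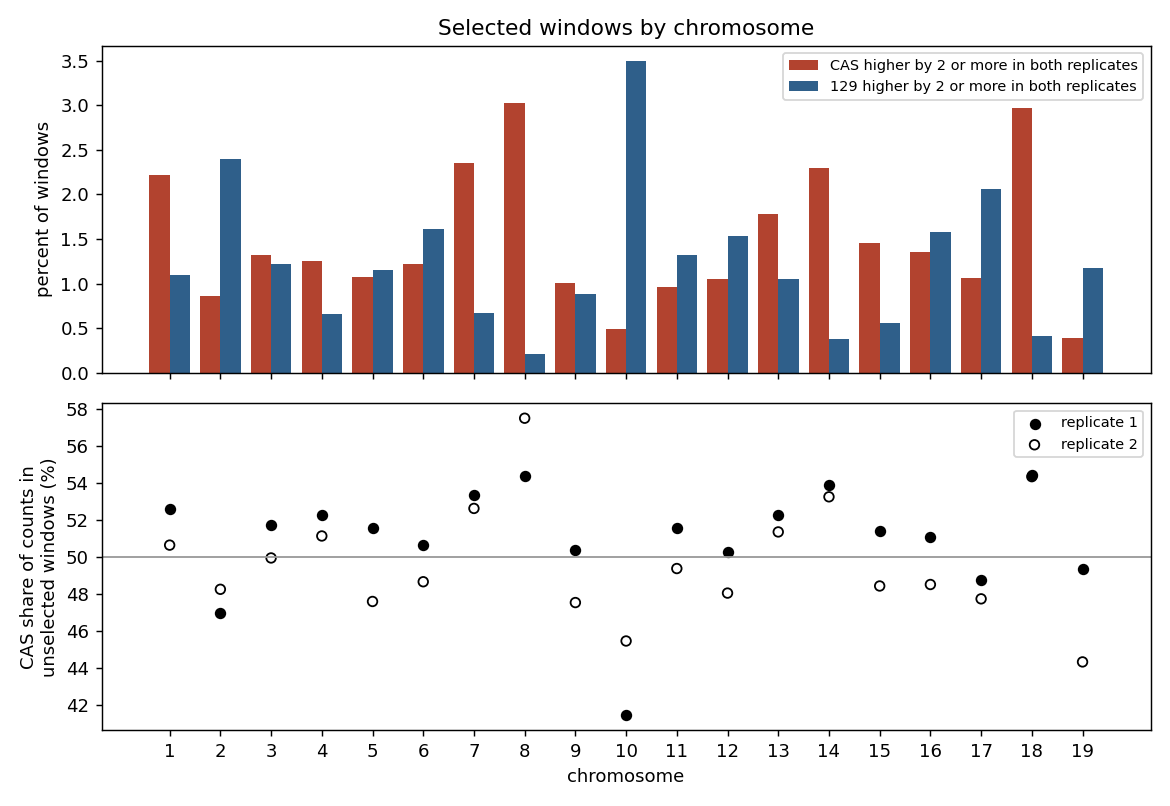
Top: percentage of each chromosome's windows (y axis) that met the rule for CAS (red) or the mirror rule for 129 (blue), by chromosome (x axis). Bottom: CAS share of the counts in the windows that met neither rule (%), replicate 1 as filled and replicate 2 as open circles. Chromosomes 8 and 18 are high in both panels for CAS, and chromosome 10 is low.

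The plot by chromosome places the chosen windows against this background level. Along the chromosomes, the number of chosen windows went up toward the distal end. With each chromosome cut into 5 stretches of equal window number, from the centromeric end on, they numbered 72, 113, 135, 162 and 179, or 0.818%, 1.29%, 1.54%, 1.84% and 2.04% of windows. The mirror windows numbered 106, 73, 79, 114 and 180. Signal went up the same way, with a mean summed count per window of 3.82, 3.96, 4.53, 5.52 and 6.07. As a percentage of windows with 2 or more CAS counts in both replicates, which could have met the rule, chosen windows made up 4.81% in the most proximal stretch and 7.44%, 7.69%, 7.36% and 7.31% in the others. Beyond the most proximal stretch this share was thus nearly level, while the mirror windows ran 6.86%, 5.00%, 4.64%, 5.63% and 7.38% of windows with 2 or more 129 counts.

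**Figure D3:**
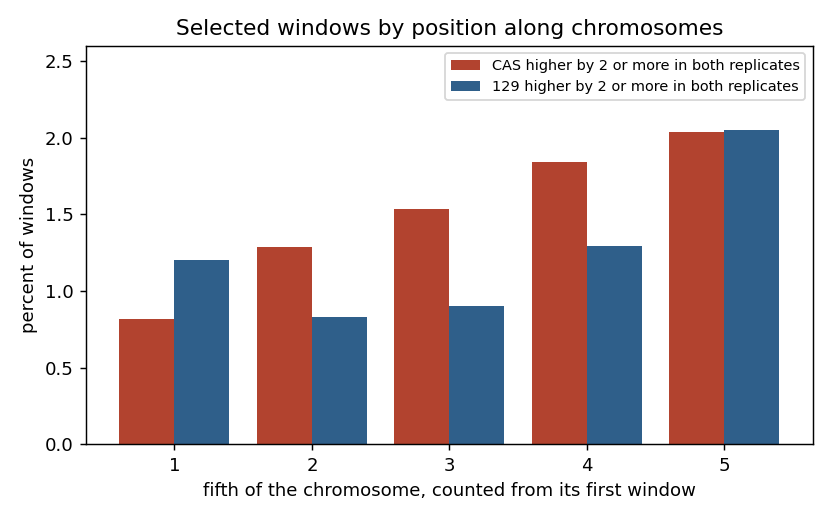
Percentage of windows (y axis) that met the rule for CAS (red) or the mirror rule for 129 (blue) in 5 equal stretches of each chromosome, counted from its first window (x axis) and summed over the 19 chromosomes. CAS windows go up from 0.818% to 2.04%, and 129 windows are lowest in stretch 2, at 0.831%.

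The plot by stretch shows both sets highest at the distal end. Within these stretches, chosen windows were mostly isolated. Of the 661, 586 had no chosen window next to them, 28 runs were of 2, 5 runs were of 3 and 1 run was of 4. The 75 windows in runs made up 11.3% of the chosen ones, and the same share was 10.7% (59 of 552) among mirror windows. Neighbouring chosen windows on a chromosome lay 1.9 Mb apart at the median. In 1 Mb bins, 522 of 2397 held at least 1 chosen window, 94 of them 2, 13 of them 3, 5 of them 4 and 1 of them 5. Bins holding both a chosen and a mirror window numbered 93.

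The longest run covered chr4:143200001-143400000, with Prdm2, a zinc finger methyltransferase gene, Pdpn, Lrrc38, a potassium channel subunit gene, and Pramel1, of a repeated gene family. It summed to 27 and 34 CAS counts against 15 and 15 on 129. The run of 3 at Rgs18, a regulator of G protein signalling (chr1:144700001-144850000), summed to 6 and 12 against 0 and 3. The run of 3 inside Dlg2, a scaffold protein of synapses (chr7:91300001-91450000), summed to 10 and 14 against 3 and 5. The run over Plscr4, a phospholipid scramblase gene, and Plod2 (chr9:92450001-92600000) summed to 11 and 17 against 3 and 6. In the heavy chain locus, a run of 3 (chr12:114350001-114500000) summed to 24 and 41 against 11 and 26. A run at chr8:35100001-35250000, without a coding gene, summed to 9 and 11 against 3 and 2. It lay 125694 bp from Ppp1r3b and 134311 bp from the poly(ADP-ribose) polymerase gene Tnks. Each run combines windows that the same rule chose, so its sum carries the same choice.

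Read without their chosen windows, the bins around these runs differed. In the bin from 91 to 92 Mb of chromosome 7, within Dlg2, the other windows held 18 and 61 CAS counts against 12 and 23 on 129. In the heavy chain bin from 114 to 115 Mb of chromosome 12, which had 5 chosen windows and the most of any, the others held 36 and 57 against 23 and 52. At 174 to 175 Mb of chromosome 1, with the formin gene Fmn2 and the odorant receptor gene Olfr419, they held 29 and 62 against 22 and 51. These 3 bins were higher on CAS in both replicates. At 144 to 145 Mb of chromosome 1 (Rgs18), the others held 11 and 34 against 10 and 37, at 143 to 144 Mb of chromosome 4 (Pdpn) 9 and 10 against 8 and 12, and at 92 to 93 Mb of chromosome 9 (Plod2) 15 and 30 against 12 and 30. In these, replicate 2 was level or higher on 129.

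Several long or compact genes held more than 1 chosen window, 29 coding genes in all. Among them, Gm37013, Gm38666 and Gm38667 overlap one another and share the same 2 chosen windows. A longer gene has more windows that could be chosen, and the number has no count from mirror windows beside it. Dlg2 held 6 of its 40 windows, and its unselected windows summed to 51 and 130 CAS counts against 38 and 67 on 129. Agbl4, which encodes an enzyme that trims glutamate side chains from tubulin, held 3 of 27, and its unselected windows summed to 17 and 42 against 16 and 32. Chd9, a chromatin remodeler gene, held 3 of 6, and its other windows had 1 count in every column. In Fam3c both windows were chosen, with 9 and 9 CAS counts against 3 and 3 on 129. In Mipep, for a peptidase of mitochondria, 2 of 4 windows were chosen and held all of its counts, 6 and 7 against 1 and 1. Dcc, a netrin receptor gene, held 2 of 23, with 9 and 42 against 9 and 28 in the others. Gpc5, a heparan sulfate proteoglycan gene, held 2 of 30, with 16 and 58 against 23 and 68, so its unselected windows were higher on 129 in both replicates.

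In 10 places a chosen window lay directly beside a mirror window. Inside Mogat1, a gene of triglyceride synthesis, 5 and 7 CAS counts against 1 and 3 on 129 bordered 1 and 2 against 3 and 4. At Mcm10, a replication initiation gene, 4 and 6 against 1 and 1 bordered 1 and 1 against 3 and 4. At Zfp42, the stem cell factor known as Rex1, 11 and 14 against 8 and 10 bordered 7 and 9 against 9 and 15. Further such pairs lay at Rftn2, Gli2, Clec4a1, Nav2, Tenm4 and Lrrc74a.

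Of the 661 chosen windows, 437 overlapped a protein-coding gene, which is 66.1% (exact 95% interval 62.4% to 69.7%, covering counting error over windows only). The share was 66.1% among mirror windows, 57.8% over all windows and 75.4% over the 9421 windows with 2 or more CAS counts in both replicates. A coding gene start lay in 197 chosen windows (29.8%), against 33.2% of mirror windows, 24.4% of all windows and 44.3% of windows with 2 or more CAS counts in both replicates. The chosen windows overlapped 604 coding genes and held the starts of 265. Any annotated gene was overlapped by 83.4% of them, a lncRNA gene by 34.5% and a pseudogene by 15.9%, against 76.2%, 28.1% and 16.1% of all windows and 88.1%, 36.2% and 16.5% of windows with 2 or more CAS counts in both replicates. No test was made on these shares.

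Gene content depended on how strong a window was. Among chosen windows with a summed count of 4 to 7, 49.5% overlapped a coding gene, against 56.6% of mirror windows and 59.7% of all windows of that strength. At 8 to 11 the shares were 59.3%, against 60.0% and 69.9%. At 12 to 16 they were 80.0%, against 75.2% and 78.5%, and at 17 to 49 they were 81.9%, against 76.7% and 85.4%. The gap was wider for gene starts in weak windows: 10.5% of chosen windows with a count of 4 to 7 held one, against 20.4% of mirror windows and 27.9% of all windows of that strength. At 17 to 49 the shares were 49.7%, against 45.0% and 55.4%. Within a band of strength, the chosen windows were thus poorer in coding gene starts than all windows in each of the 4 bands. Against mirror windows they were poorer in the 2 weaker bands and richer in the 2 stronger ones. Chosen windows themselves made up 1.58%, 3.23%, 5.20% and 9.19% of all windows over the 4 bands.

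**Figure D4:**
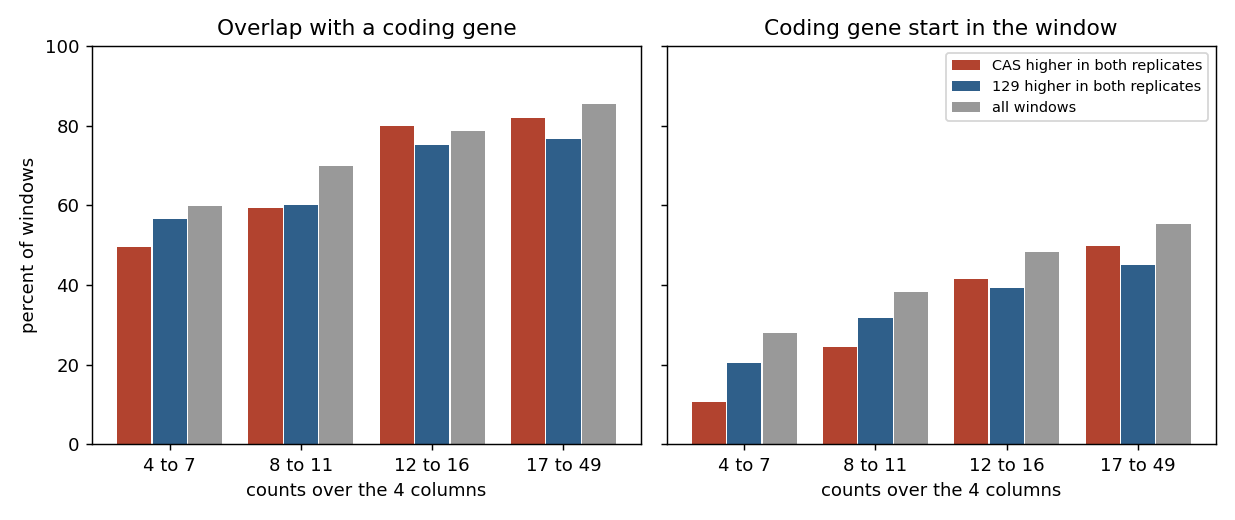
Percentage of windows (y axis) that overlap a coding gene (left) or hold a coding gene start (right), by summed count over the 4 columns (x axis), for windows chosen for CAS (red), mirror windows chosen for 129 (blue) and all windows of that strength (grey). In the weakest band the CAS windows are lowest in both panels, at 49.5% and 10.5%.

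The plot of gene content by strength also shows the overlap rising with the count in all 3 sets. Away from genes, 224 chosen windows had no coding gene, with the nearest one 103529 bp off at the median, against 151837 bp over 18534 such windows in the table. No coding gene lay within 500 kb of 33 chosen windows (4.99%), against 8.20% of all windows and 3.48% of windows with 2 or more CAS counts in both replicates. The most remote lay 1911683 bp from Aga, a lysosomal enzyme gene, at chr8:51550001-51600000, with 3 and 5 CAS counts against 0 and 3 on 129. The next was 1759402 bp from Cntnap5b, a neural adhesion gene, with the same counts (chr1:102250001-102300000). Coding genes of 500 kb or more were overlapped by 47 chosen windows (7.11%), against 25 mirror windows (4.53%), 8.06% of all windows and 6.11% of windows with 2 or more CAS counts in both replicates.

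At promoters, the sequence table had 302 entries for the 265 genes that start in chosen windows. Their median GC content was 57.7% and their median CpG ratio 0.653, against 59.3% and 0.666 at 309 promoters of mirror windows and 57.3% and 0.607 at 17794 promoters of all windows. At 7627 promoters of windows with 2 or more CAS counts in both replicates they were 59.7% and 0.704, so that the chosen windows' promoters lay below that set and above all windows. GGGCGG on either strand was found in 54.3% of them, against 58.9% for mirror windows, 48.6% for all windows and 57.99% for windows with 2 or more CAS counts in both replicates. CCAAT was found in 39.7%, against 34.3%, 37.5% and 38.1% in those sets, and TATAAA in 11.6%, against 7.44%, 12.02% and 8.77%. The 28 promoters in chosen windows with a summed count of 4 to 7 had a median CpG ratio of 0.321, against 0.647 for all promoters in windows of that strength. At 8 to 11 counts the ratio was 0.669 (60 promoters), against 0.695, at 12 to 16 it was 0.483 (91 promoters), against 0.702, and at 17 to 49 it was 0.750 (123 promoters), against 0.714. The ratio was thus lower in the 3 weaker bands and higher in the strongest, and no test was made. Pdpn and Duxf3, printed above, are on the low side of the ratio, and Hnrnpc and Cwc22 on the high side.

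The windows were also read against 23 lists of gene families and pathways. The difference between the alleles over all windows of a list was 0 at the median in both replicates in 22 of the lists, as over the whole table, and in the killer cell lectin-like receptor list it was 0 and 1. The share of windows chosen, set beside 1.5% over the table, was highest for clustered protocadherins (2 of 13 windows, 15.4%), pluripotency genes (4 of 50, 8.0%), antigen receptor segments (12 of 157, 7.64%) and chromatin regulators (7 of 164, 4.27%). The mirror windows of the same lists numbered 0, 4, 5 and 2. Pluripotency windows were strong, with a median summed count of 16.5, and 5.20% of all windows with 12 to 16 counts and 9.19% of those with 17 to 49 were chosen.

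Of the pluripotency genes, Fbxo15, a target of the stem cell network (chromosome 18), held 11 and 12 CAS counts against 6 and 9 on 129. Zfp42 held 11 and 14 against 8 and 10, and Prdm14, a repressor of differentiation genes, 5 and 7 against 3 and 4. Il6st, the receptor subunit through which LIF signals, held 4 and 5 against 2 and 3. In the Zfp42, Prdm14 and Il6st windows the higher 129 value lay 1 count below the lower CAS value. The rule favours such an order of values. Of the chromatin regulators, Kat2b, a histone acetyltransferase gene, held 4 and 5 against 0 and 1. Eed, a Polycomb subunit gene, held 8 and 8 against 5 and 5, and the strongest Chd9 window 7 and 8 against 4 and 4. The others were Spin1, Chd2 and a further 2 windows of Chd9.

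Of 47 windows with an antibody V segment on chromosome 12, 9 were chosen and 4 were mirror windows, and of 70 V segment windows on chromosome 6, 3 were chosen. On chromosome 6, Trbv31, of the T cell receptor beta locus, had 5 and 7 CAS counts against 3 and 4 on 129, and the 2 kappa light chain windows had at most 3 counts in any column. The protocadherin windows, in the clusters that give neurons their surface identity, held 3 and 4 against 1 and 1 (Pcdha1 to Pcdha9) and 2 and 3 against 0 and 1 (Pcdhb9 to Pcdhb14). Both lie on chromosome 18, and genes of a cluster share these windows and cannot be told apart.

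In replication and chromosome architecture genes, 2 of 78 windows were chosen: Mcm10 (4 and 6 CAS counts against 1 and 1 on 129) and Cdt1, which loads the replicative helicase (9 and 7 against 6 and 3). Of 96 windows of stem cell signalling genes 2 were chosen, led by Lef1, a nuclear effector of Wnt signalling, with 6 and 10 against 3 and 4. Isl1, a LIM homeobox gene, was the chosen window of 52 in the lineage transcription factor list (5 and 8 against 3 and 4). Imprinted genes had 2 of 134, Asb4 (6 and 4 against 3 and 2) and the amino acid transporter gene Slc38a4 (3 and 2 against 1 and 0). In this 1 line, parental and strain effects on an imprinted gene cannot be told apart.

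Transport and adhesion lists lay near the level of the table. Solute carriers had 13 of 659 windows (1.97%), led by the glutamate transporter gene Slc1a3 (4 and 4 CAS counts against 1 and 1 on 129) and the sugar transporter gene Slc2a7 (8 and 4 against 1 and 2). Potassium channels had 5 of 298 (1.68%), led by Kcnu1 (6 and 7 against 3 and 4) and Kcnj3 (4 and 6 against 2 and 2). The list of contactin, neurexin and synaptic adhesion genes had 7 of 467 (1.499%). Of these, 6 were in the scaffold gene Dlg2 and the other in Cntnap4, and Tenm2 is not on this list. Cadherins outside the clusters had 5 of 208 (2.40%), led by Cdh8 (2 and 5 against 0 and 0) and Pcdh15 (2 and 7 against 0 and 2). Zinc finger genes had 8 of 468 (1.71%), led by Zfp580 (10 and 8 against 5 and 5).

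Olfactory receptors, which sense odours, had 4 of 471 windows (0.849%), led by the window of Olfr494 and Olfr495 with 4 and 6 CAS counts against 1 and 3 on 129. Cytochrome P450 genes had 1 of 143 (Cyp2c37, 2 and 2 against 0 and 0). Ribosomal protein genes had 1 of 74 (Rpl17, 6 and 7 against 4 and 5), and fibroblast genes 1 of 51 (Pdgfrb, a growth factor receptor, 5 and 3 against 2 and 1). None was chosen among 220 vomeronasal, 26 MHC, 26 killer cell lectin-like receptor, 59 serine protease inhibitor, 25 defensin and 14 histone windows. Mirror windows were as few there, with 1 in the MHC list and 0 in the other 5 lists. The median summed count was 1 in vomeronasal and 2 in olfactory and defensin windows, low for a rule that needs 4.

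Whether the lean to CAS went beyond a chosen window was read in its neighbours, without those that met either rule themselves. Their own difference kept them in the set, which takes out the largest differences in both directions and holds the shares toward equality. With all adjacent windows kept, chosen ones included, the mean CAS share over the replicates was 54.1%, against 52.3% without them. In the 1189 adjacent windows, the mean counts per window were 1.64 and 2.07 on CAS, against 1.46 and 1.93 on 129. That is a CAS share of 53.0% in replicate 1 (exact 95% interval 51.3% to 54.6%) and 51.7% in replicate 2 (50.3% to 53.2%). Over all unselected windows it was 51.1% and 50.0%, and at the level of the same chromosomes it was 52.0% and 51.0%. The adjacent windows lay above the level of their chromosomes by 0.956 and 0.743 percentage points. The exact intervals held the chromosome level in both replicates. They assume independent reads, and the counts varied less than that, so they do not measure the spread of these shares. At 100 kb the shares were 52.3% and 52.9%, and in replicate 2 the interval (51.4% to 54.4%) lay above the chromosome level of 51.0%. At 150 kb to 1 Mb they ran between 50.9% and 52.9%, on both sides of the chromosome level.

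By count of windows, 168 of the 1189 adjacent windows (14.1%) were higher on CAS in both replicates without meeting the rule. Higher on 129 in both were 108 (9.08%). At 100 kb these were 177 (14.8%) and 82 (6.84%), and over all unselected windows 8.61% and 7.93%. Beside mirror windows the order turned round: 67 of 999 (6.71%) were higher on CAS in both replicates and 151 (15.1%) on 129. The CAS share there was 48.1% and 46.7%, against chromosome levels of 49.7% and 48.7%. With 2 libraries in the design, no permutation of samples can test these shares, and they are given as values.

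**Figure D5:**
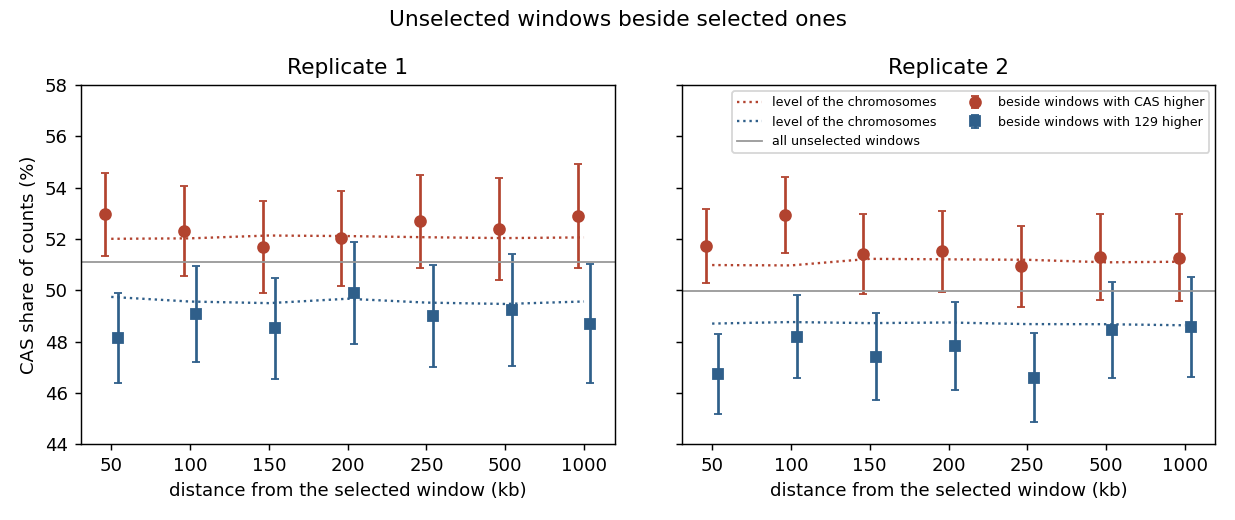
CAS share of the summed counts (%, y axis) in windows that met neither rule, by distance from a window chosen for CAS (red circles) or for 129 (blue squares) in kb (x axis, not to scale), replicate 1 on the left and replicate 2 on the right. Bars are exact 95% intervals that assume independent reads, dotted lines the level of the same chromosomes and the grey line all unselected windows. Beside CAS windows the share is 53.0% and 51.7% at 50 kb.

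The plot of neighbours shows the CAS points near the dotted line of their chromosomes at most distances. The same question was put to 1 Mb bins, summed over unselected windows only and tested between the alleles with edgeR's quasi-likelihood test. Since windows were left out by the values tested, bins are drawn toward no difference, and a bin that does not pass is not shown to be level. Of 2069 bins tested, 498 held a chosen window, and none of the 2069 passed a Benjamini-Hochberg adjusted p of 0.05 (0%), with 23 at an unadjusted p under 0.05. Of those 23, 6 were bins with a chosen window and higher on CAS, and 0 were bins with a chosen window and higher on 129. With the replicate as a block none passed either (0%), with 85 at an unadjusted p under 0.05, of which 23 were bins with a chosen window and higher on CAS and 0 were bins with one and higher on 129. The directions of the other bins under that unadjusted p were not counted, so these splits have no share over all bins beside them. None of these bins passed adjustment, and no direction is read from the splits. In the fit without the block, CAS was higher in 60.2% of tested bins with a chosen window and in 50.0% of all bins tested. DESeq2 called 0 with 0 at an unadjusted p under 0.05. With all windows kept, which brings the choice back in, edgeR called 0 bins without the block and 7 with it, 1 higher on CAS and 6 higher on 129. The median log2 difference, CAS minus 129, was 0.08 in bins with a chosen window and 0.00 over all bins tested. The Dlg2 bin at 91 to 92 Mb of chromosome 7 had a log2 difference of 1.12 (edgeR adjusted p = 0.997). With the replicate block it was 1.16, with an adjusted p of 0.0696.

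In sign alone, the unselected counts of both replicates together were higher on CAS in 316 of 522 bins with a chosen window (60.5%) and higher on 129 in 186. In the 1875 bins without one, CAS was higher in 869 (46.3%) and 129 in 873. By replicate, CAS was higher in 310 bins with a chosen window in replicate 1 (59.4%) and 294 in replicate 2 (56.3%), against 49.3% and 42.7% of bins without one. These shares contain the level of the chromosomes, on which the chosen windows are unevenly spread.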

How the data were processed

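ATAC-seq was done on 2 replicates of 1 mouse cell line. Per the submitters' processing notes, the tools were bedtools, Bowtie2, MACS2 and SAMtools (no versions or roles given) and the build was mm10. The deposited table holds whole-number counts per 50 kb window in 4 columns, those of the CAS and 129 alleles in each replicate (per-sample columns left unused: 0), and no normalization is visible in the values. What is counted, how alleles were assigned and why 3978 windows of the grid are not in the table is not given in the sources used here. Between the alleles of a replicate the counts varied less than independent reads would, with 0.327 and 0.468 of the binomial variance in replicates 1 and 2, so their depth is unknown. Exact Clopper-Pearson 95% intervals cover counting error only. Those of CAS shares assume independent reads and do not measure this smaller spread.

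Windows were ranked by the smaller of the 2 differences, then by their sum and position. The windows named are the 25 highest-ranked, those with 0 on 129 in both replicates and a smaller difference of 3 or more, the longest runs, the fullest bins, and the leading windows of each gene list. Of the 25, 2 are not reported here. Pairs of opposite windows, genes with several windows and remote windows were named after their values were seen. The rule and the 23 lists were chosen with earlier results of these data known. A gene counts for a window where they share at least 1 base, whether exon or intron, and a distance runs to the nearest coding gene. Chromosome X was not analysed here.

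Unselected windows were summed in 1 Mb bins and tested with edgeR 4.0.16 (TMM, filterByExpr with a minimum count of 10, quasi-likelihood test). DESeq2 1.42.0, other scalings, bin sizes and filters, leaving out each replicate and the replicate block were alternatives. The replicate number pairs the alleles because 1 library yields both, and their deviations correlated at r = 0.291 across windows. Tested on simulated data with 2069 bins, of which 200 were altered, edgeR recovered 51% of 2-fold changes without the block (6 false calls) and 17% with it (0 false calls), and 99% of 4-fold changes with either. The simulated counts had Poisson spread and were drawn independently for each column. They lacked the smaller spread and the correlation between alleles seen in the real counts, so these rates may not hold there.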

Additional observations from a re-analysis of the deposited data

How the results depend on the processing

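The number of windows chosen depended on each setting tried. It was 4338 at a difference of 1 or more in both replicates, against 661 at 2, and 119 at 3. It was 261 with the 129 counts scaled to the CAS total, all of them among the 661, and 341 with that scaling per chromosome. With 1 replicate left out it ran from 2107 (replicate 1 alone) to 3506 (replicate 2 alone). The scaling factors were 1.05 and 1.00, and their effect follows from the rule, since any factor above 1 moves a difference of exactly 2 with a nonzero 129 count below 2.

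Coding gene overlap was 66.1%. It was 71.4% at a difference of 3 or more, 83.4% for any annotated gene, 29.8% for a coding gene start and 56.0% to 68.6% with 1 replicate left out. The mean CAS share in adjacent windows was 52.3%. It was 54.1% with all adjacent windows kept, chosen ones included, 53.4% beside windows with a difference of 3 or more, and 51.4% to 52.6% when windows were chosen in 1 replicate and read in the other. Without chromosomes 8, 14 and 18 it was 51.7%, at 2 to 5 windows' distance 51.8% and with 4 or more counts 52.1%.

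Of 1 Mb bins summed without chosen and mirror windows, 0 passed an adjusted p of 0.05 in edgeR, with 2 other scalings, no filter, the replicate block or bins of 500 kb and 2 Mb, and 0 in DESeq2. At an adjusted p of 0.1, 0 passed without the block and 1 with it, the Dlg2 bin, higher on CAS, a setting chosen after seeing the data. With all windows kept, which brings the choice back in, 0 bins passed without the block (50 at an unadjusted p under 0.05) and 7 with it, 1 higher on CAS and 6 on 129, also chosen after seeing the data. Leaving out a replicate leaves 1 library and no test. Small counts limit every value here: in 542 of the 661 windows, a difference smaller by 1 count in a replicate would have missed the rule.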

Other observations

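Annotated microRNA genes lay in 18 of the chosen windows (2.72%), against 818 of all windows (1.86%) and 3.57% of windows with 2 or more CAS counts in both replicates. The window of Mir132 and Mir212, a pair of microRNAs known from neurons, held 8 and 7 CAS counts against 5 and 5 on 129, and that of Mir147, induced in macrophages, held 5 and 8 against 3 and 4. Mir582 lay in a window with 5 and 7 against 1 and 4. Mir759 lay in one with 4 and 6 against 1 and 3.

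The chosen windows with the most counts, singled out after their values were seen, were those of Emb, for the adhesion protein embigin (12 and 16 CAS counts against 9 and 9 on 129, 46 in all), with 45 counts each the Ighv6-4 window and a window near Atf7ip, for a partner of a histone methyltransferase (12 and 13 against 10 and 10). In the Emb and Atf7ip windows a difference that met the rule was a small part of the count.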
